A study of Mus musculus with 2 samples.

Results

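Subunits of voltage-gated calcium channels were examined through 10 of the 55536 genes in the annotation. They were chosen by symbol: 8 pore-forming genes (Cacna1a, Cacna1b, Cacna1c, Cacna1d, Cacna1e, Cacna1g, Cacna1h and Cacna1i) and 2 auxiliary genes (Cacna2d1 and Cacnb4). The rule used no measured value, but the members were chosen with earlier results of these data known. RNA came from the layer of hippocampus of B6CASTF1/J males at 2 months of age, a cross between CAST/EiJ and C57BL/6J, with no treatment or engineered allele in the labels. Each of the 2 libraries was a total RNA library made from 300 ng of RNA with an added spike-in mix. They form 1 group, numbered as biological replicates 1 and 2 under a shared strain-level donor label, so the data hold no comparison between conditions and allow no test.

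A voltage-gated calcium channel opens when the membrane is depolarised and lets calcium into the cell. The pore subunit sets the current type: P/Q-, N- and R-type channels trigger transmitter release at nerve terminals, L-type channels in cell bodies and dendrites couple activity to gene expression, and T-type channels open near the resting potential and shape burst firing. An alpha2delta subunit and a cytoplasmic beta subunit bring high-voltage pores to the membrane and tune their gating, whereas T-type pores can work without them.

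The libraries held 31422827 and 31303010 expected counts in replicates 1 and 2. Marker lists of neurons, dentate granule cells, CA1 and CA3 pyramidal cells, interneurons and glia were detected in full, and the cerebellum and retina lists not at all (0 of 3 genes each at or above 1 TPM in both libraries). The skeletal muscle and heart lists each had 1 of 3 genes detected, Acta1 at 2.64 and 2.63 TPM and Myh6 at 1.02 and 1.67 TPM. Of neighbouring tissues, 2 of 3 choroid plexus markers and 3 of 3 thalamus markers (median 3.73 TPM) were detected. In bulk tissue, fewer cells of a type and less RNA per cell cannot be told apart.

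All 10 genes were detected, defined as a TPM (transcripts per 1000000, a level corrected for transcript length and library size) of at least 1 in both libraries, beside 57.7% of the 22028 protein-coding genes. Their median level was 33.3 TPM, against 14.7 TPM over the 12710 detected protein-coding genes. The lowest member, Cacna1i, lay at the 51.7th percentile of those genes, and the highest, Cacna1e, at the 92.4th. Expected counts per member were between 2262 and 23956 per library.

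**Figure D1:**
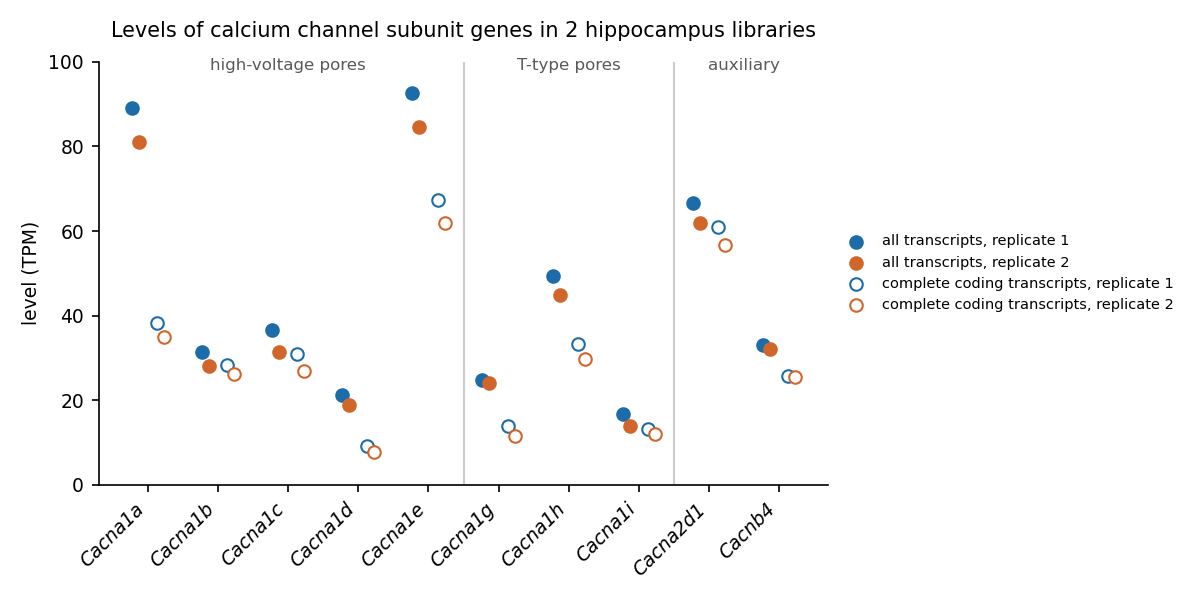
Levels in TPM (vertical axis) of the 10 genes in replicate 1 (blue) and replicate 2 (orange), over all transcripts (filled) and over protein-coding transcripts with a complete coding sequence (open). Cacna1e and Cacna1a lead by gene level, and Cacna1a, Cacna1d and Cacna1g lose the largest part of their level when only complete coding transcripts are counted.

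Cacna1e, the R-type pore, and Cacna1a, the P/Q-type pore of fast transmitter release, had the highest gene levels. Cacna1e (chr1:154390731-154884501, minus strand, mm10) stood at 92.6 and 84.5 TPM in replicates 1 and 2 (88.5 ± 5.69, SD, n = 2). Cacna1a (chr8:84388440-84640246, plus strand) stood at 89.1 and 81.0 TPM (85.1 ± 5.72, SD, n = 2). Their ranges overlapped, although Cacna1e was the higher in both libraries. Cacna1b (chr2:24603887-24763152, minus strand), the N-type pore that shares release sites with the P/Q-type, was at 31.5 and 28.0 TPM (29.7 ± 2.44, SD, n = 2), below both in each library.

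The L-type pores were below Cacna1e and Cacna1a in both libraries. Cacna1c (chr6:118587240-119196418, minus strand), the main L-type pore of brain and heart, was at 36.7 and 31.4 TPM (34.0 ± 3.73, SD, n = 2). Cacna1d (chr14:30039939-30491455, minus strand), an L-type pore that opens at more negative voltages, was at 21.2 and 18.9 TPM (20.1 ± 1.68, SD, n = 2). The groups of 2 values did not overlap, and Cacna1c was the higher in both libraries.

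Among the T-type pores, Cacna1h (chr17:25374285-25433783, minus strand) was at 49.4 and 44.9 TPM (47.2 ± 3.17, SD, n = 2). Cacna1g (chr11:94408391-94474198, minus strand) followed at 24.9 and 24.2 TPM (24.5 ± 0.481, SD, n = 2). Cacna1i (chr15:80287238-80398279, plus strand) was at 16.9 and 14.0 TPM (15.4 ± 2.05, SD, n = 2). None of the 3 ranges overlapped, with Cacna1h above Cacna1g and Cacna1g above Cacna1i in both libraries. The T-type pores together held 25.2% and 25.4% of the summed pore TPM in replicates 1 and 2. The 5 high-voltage pores held the other 74.8% and 74.6%, and the L-type pair within them 16.0% and 15.4%.

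Of the auxiliary genes, Cacna2d1 (chr5:15934691-16374511, plus strand), which encodes alpha2delta-1, the binding site of gabapentin, was at 66.7 and 61.9 TPM (64.3 ± 3.33, SD, n = 2). Cacnb4 (chr2:52428320-52676831, minus strand), the beta subunit mutated in the lethargic mouse, was at 33.1 and 32.2 TPM (32.6 ± 0.651, SD, n = 2). In the full order (Cacna1e, Cacna1a, Cacna2d1, Cacna1h, Cacna1c, Cacnb4, Cacna1b, Cacna1g, Cacna1d, Cacna1i), the neighbours whose ranges overlapped were Cacna1e with Cacna1a and Cacna1c with Cacnb4. Only the order of Cacna1c and Cacnb4 differed between the libraries.

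The TPM of a gene is the sum over its annotated transcripts. For several members much of that sum lay in transcripts not classed as protein-coding, called noncoding here. They include short models with no coding sequence, such as Cacna1a-210 of 549 bases, but also Cacna1d-208 of 9658 bases, which has 1539 coding bases. Transcripts not classed as protein-coding held over 10% of the gene TPM in 7 of 10 members, beside 57% of 11502 detected protein-coding genes with more than 1 transcript. Their median share was 23.7% over the members and 13.8% over those genes. Measured instead as a share of the expected counts, it was 3.41% over the members and 5.54% over those genes, TPM being divided by length and counts not.

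Cacna1a shows the difference most clearly. Its noncoding transcripts held 54.9% and 54.7% of the gene TPM in replicates 1 and 2 but 10.8% and 10.1% of the counts. Cacna1a-210, a processed transcript of 549 bases, held 27.9% ± 2.81 of the TPM (SD, n = 2), whereas the full-length Cacna1a-201 of 7926 bases, encoding 2368 residues, held 43.0% ± 0.0660 (SD, n = 2). In counts, Cacna1a-201 took 85.0% and 85.6% of the gene. Cacna1g behaved alike, with 47.9% ± 5.59 of the TPM and 7.20% ± 1.53 of the counts in noncoding transcripts (SD, n = 2).

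Cacna1d was the exception among the members, because its noncoding share was high on both scales, at 58.2% ± 1.57 of the TPM and 44.7% ± 3.04 of the counts (SD, n = 2). The largest of these models were Cacna1d-203, a retained-intron transcript of 3503 bases with 18.2% ± 1.61 of the TPM, and Cacna1d-208, a transcript of 9658 bases annotated as a target of nonsense-mediated decay with 11.2% ± 0.237 (SD, n = 2). The decay class names RNAs whose stop codon lies early enough for the cell to degrade them. At the other end, the mean noncoding share of the counts was 0.411% in Cacnb4, 0.106% in Cacna1b and 0.00973% in Cacna1i. Of the TPM it was 21.2% in Cacnb4 (2.32% read-based), most of it in the 208-base Cacnb4-205. In Cacna1b and Cacna1i it was 0.961% and 0.465% of the TPM. For Cacna1i the low share held in the alignment-based quantification only. The read-based one put 11.7% ± 2.35 of the counts and 14.4% ± 3.96 of the TPM (SD, n = 2) in the decay-class transcript Cacna1i-205.

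**Figure D2:**
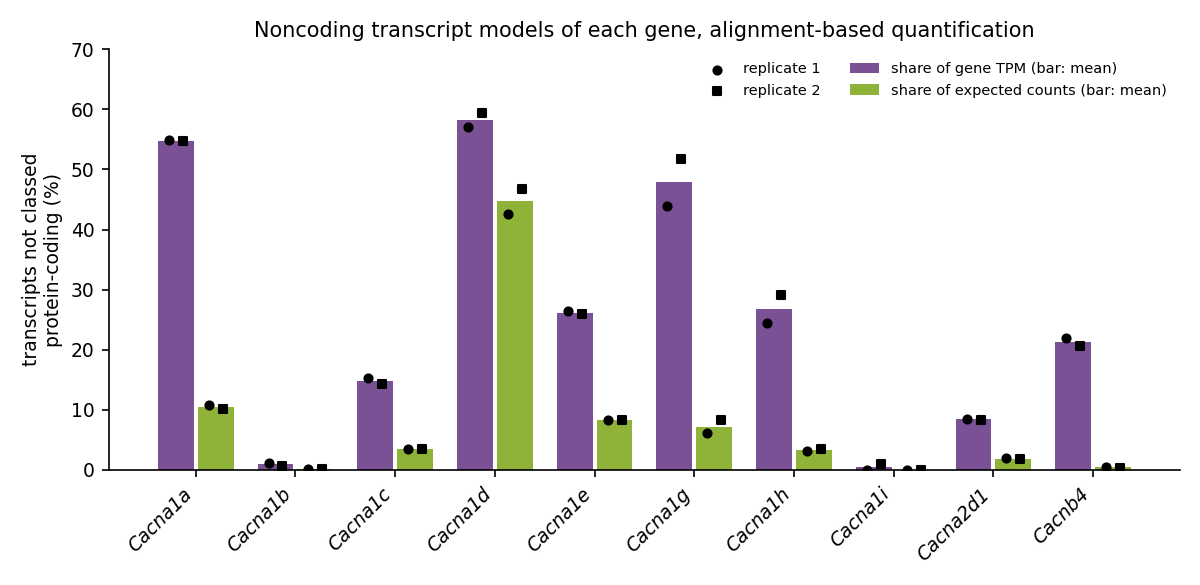
Share (vertical axis, %) of each gene held by transcripts not classed as protein-coding, as part of the gene TPM (purple) and of its expected counts (green); bars are means and black points the 2 libraries. The bars differ most for Cacna1a and Cacna1g, whereas Cacna1d stays high on both scales, at 58.2% and 44.7%.

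Counting only protein-coding transcripts with a complete coding sequence gave another order: Cacna1e at 64.5 ± 3.83 TPM, Cacna2d1 at 58.9 ± 2.96, Cacna1a at 36.6 ± 2.39, Cacna1h at 31.5 ± 2.50, Cacna1c at 29.0 ± 2.93, Cacna1b at 27.3 ± 1.58, Cacnb4 at 25.7 ± 0.212, Cacna1g at 12.8 ± 1.61, Cacna1i at 12.7 ± 0.785 and Cacna1d at 8.39 ± 1.02 (SD, n = 2 each). On this scale the ranges of Cacna1e (lowest 61.8 TPM) and Cacna1a (highest 38.2 TPM) no longer met, and Cacna1d moved to the last place. Cacna1h and Cacna1c, Cacna1c and Cacna1b, and Cacna1g and Cacna1i were the neighbours with overlapping ranges. Of these, only Cacna1g and Cacna1i changed order between the libraries, at 13.93 and 13.23 TPM in replicate 1 and 11.65 and 12.12 TPM in replicate 2. The high-voltage share of the pore TPM hardly moved, at 74.2% and 74.6% in replicates 1 and 2.

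The second, read-based quantification gave each member a higher TPM, between 23.0 for Cacna1i and 141 for Cacna1e on average. Its order of the members matched the first except that Cacna1b stood above Cacnb4. With complete coding transcripts only, both quantifications gave the same order.

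The splicing of the pores was read from the transcript models. For each coding exon, its share is the TPM of the transcripts that hold it, out of all transcripts whose coding sequence spans its position. No coding sequence spans a first coding exon, so its share is out of the protein-coding transcripts with a complete coding sequence. Such shares rest on a few annotated models and not on counts of junction reads, so distant exons carried by the same models share 1 value. Shares are from the alignment-based quantification unless called read-based.

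Cacna1c and Cacna1d each hold a pair of mutually exclusive 104-base exons that encode alternative versions of the S6 segment of domain I, a membrane helix that lines the pore. The exons are shown because their choice decides which version of the segment the channel has; capitals mark the bases that differ between the upstream and downstream exon of the same gene.
Cacna1c upstream exon, chr6:118742265-118742368: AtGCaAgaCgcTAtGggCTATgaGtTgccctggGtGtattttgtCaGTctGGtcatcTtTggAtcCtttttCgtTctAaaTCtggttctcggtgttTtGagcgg
Cacna1c downstream exon, chr6:118741871-118741974: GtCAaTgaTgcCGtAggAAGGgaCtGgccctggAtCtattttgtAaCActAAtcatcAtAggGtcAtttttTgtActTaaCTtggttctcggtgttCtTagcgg
Cacna1d upstream exon, chr14:30171956-30172059: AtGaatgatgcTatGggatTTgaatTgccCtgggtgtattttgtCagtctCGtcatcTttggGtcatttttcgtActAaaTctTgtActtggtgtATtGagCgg
Cacna1d downstream exon, chr14:30171296-30171399: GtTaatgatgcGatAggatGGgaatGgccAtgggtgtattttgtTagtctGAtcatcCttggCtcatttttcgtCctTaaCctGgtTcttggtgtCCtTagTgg

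In Cacna1c 72 of 104 bases were the same in both exons (69.2%), and in Cacna1d 82 of 104 (78.8%). The upstream exons of the 2 genes shared 90 of 104 bases (86.5%) and the downstream exons 83 of 104 (79.8%), so the same position was more alike between the genes than the 2 exons within either gene.

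The choice between them differed between the 2 genes. In Cacna1c the upstream exon held 63.4% and 66.3% in replicates 1 and 2 (64.9% ± 2.09, SD, n = 2), and 60.4% ± 2.31 by the read-based values. In Cacna1d the upstream exon held 23.0% and 21.9% (22.5% ± 0.808, SD, n = 2), and 31.3% ± 0.993 by the read-based values. The upstream exon thus led in Cacna1c and the downstream exon in Cacna1d in both libraries and both quantifications. Most of the upstream share of Cacna1d came from the decay-class transcript Cacna1d-208: over protein-coding transcripts alone it was 1.59%, against 98.4% for the downstream exon.

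Cacna1c holds 2 further pairs. A pair of 60-base exons encodes alternative S2 segments of domain III, and its downstream exon led with 65.5% ± 1.76 (62.2% ± 2.17 read-based; SD, n = 2). A pair of 84-base exons encodes alternative S3 segments of domain IV and was close to even, with 49.1% ± 0.485 for the upstream and 50.9% ± 0.485 for the downstream exon (46.8% and 53.2% read-based). A 75-base exon between the first and second pair was in 35.0% ± 1.95 (39.0% read-based). The 3 transcripts Cacna1c-207, Cacna1c-216 and Cacna1c-203, with 41.5%, 28.7% and 13.6% of the gene TPM, carry most of what these values rest on.

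Cacna1c also starts in more than 1 place. A 49-base first coding exon held 50.2% ± 0.00701 and a 139-base first coding exon, which lies farther upstream and begins the protein with another amino end, held 48.7% ± 0.403 (SD, n = 2). The read-based values were 51.0% and 46.4%, so the starts were near even on both. In Cacna1d the 67-base start led with 85.8% ± 1.30, against 14.2% ± 1.30 for the 133-base start (64.8% and 35.2% read-based). A 45-base coding exon of Cacna1d was in 84.2% ± 0.949 (63.3% ± 4.64 read-based; SD, n = 2), all of it from Cacna1d-207. A 60-base exon, also from Cacna1d-207 alone, was in 66.3% ± 0.0789 (44.2% ± 2.32 read-based). Its denominator also holds the decay-class Cacna1d-208, which does not span the 45-base exon. Over protein-coding transcripts alone both exons had the same share, 84.2% (63.3% read-based).

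The neuronal release pores Cacna1b and Cacna1e both hold a pair of alternative 97-base exons near the start of the cytoplasmic carboxyl tail. In rat, the upstream exon of the Cacna1b pair is known from pain-sensing neurons. Capitals again mark the differing bases within a gene.
Cacna1b upstream exon, chr2:24626823-24626919: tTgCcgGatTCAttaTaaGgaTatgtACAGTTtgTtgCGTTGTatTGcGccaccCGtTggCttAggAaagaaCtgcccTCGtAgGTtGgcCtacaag
Cacna1b downstream exon, chr2:24625238-24625334: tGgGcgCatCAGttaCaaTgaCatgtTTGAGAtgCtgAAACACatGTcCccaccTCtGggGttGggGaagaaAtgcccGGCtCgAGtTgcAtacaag
Cacna1e upstream exon, chr1:154417950-154418046: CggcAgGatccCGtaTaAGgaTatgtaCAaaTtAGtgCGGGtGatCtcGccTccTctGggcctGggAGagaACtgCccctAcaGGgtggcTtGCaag
Cacna1e downstream exon, chr1:154416061-154416157: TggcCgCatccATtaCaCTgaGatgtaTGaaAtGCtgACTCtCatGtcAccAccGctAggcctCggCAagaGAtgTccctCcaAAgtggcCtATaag

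Both genes had nearly all of the share on the downstream exon. It held 97.9% and 99.2% in Cacna1b in replicates 1 and 2, and 98.8% and 98.7% in Cacna1e (98.8% ± 0.512 and 100% read-based). The upstream exon held 0.379% ± 0.535 in Cacna1b and 1.29% ± 0.0541 in Cacna1e (SD, n = 2), and it was listed at 0 in both genes and both libraries by the read-based values. Its only models are incomplete fragments, Cacna1b-210 of 332 bases with 1.13 and 0 counts in replicates 1 and 2, and Cacna1e-208 of 331 bases with 4.41 and 4.47 counts, so no full-length transcript with the upstream exon could receive reads. Here too the exons at the same position were more alike across the genes (67 of 97 bases upstream and 70 of 97 downstream) than the 2 exons within Cacna1b (57 of 97) or Cacna1e (61 of 97).

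Cacna1b has 2 very short exons in the loops before its voltage-sensing S4 segments. The 12-base exon, which lies in domain III at chr2:24656711-24656722, is shown whole.
Cacna1b 12-base exon: GAGCTTCATGGG
It was in 40.3% ± 0.484 of the transcript TPM (48.0% ± 0.0588 read-based; SD, n = 2). The 6-base exon of domain IV was in 59.3% and 60.0% (59.7% ± 0.484; 52.0% ± 0.0588 read-based). These values add to the whole because each annotated full-length transcript holds one or the other: Cacna1b-205 has the 12-base exon, and Cacna1b-202 and Cacna1b-204 have the 6-base exon. An exon of 108 bases in the carboxyl tail was in 73.9% ± 0.840 (76.9% read-based). The same models set the shares of 2 exons that have a longer and a shorter end: 40.3% and 59.7% for versions of 93 and 90 bases, and 73.9% and 26.1% for versions of 768 and 765 bases.

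Cacna1e was nearly 1 form by the alignment-based values. Cacna1e-203, of 14921 bases and 2273 residues, held 69.6% ± 0.430 of the gene TPM (SD, n = 2) and at least 89.4% of the counts in each library. The other complete form above a trace, Cacna1e-207, begins at a 189-base first coding exon and carries a 129-base exon in its tail. That first exon held 4.48% ± 0.989, against 95.5% ± 1.06 for the 269-base first coding exon (20.9% ± 2.15 and 79.0% ± 2.29 read-based; SD, n = 2). Of the 2 complete coding models of Cacna1a, Cacna1a-202 was listed at 0 in both libraries and both quantifications. An exon of Cacna1a with 2 annotated starts was in 95.0% ± 0.117 as the 93-base version and in 4.98% ± 0.117 as the 90-base version (95.0% ± 0.598 and 4.97% ± 0.598 read-based; SD, n = 2).

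The T-type genes gave less even results. In Cacna1g a 69-base exon was in 72.3% ± 0.263 (60.2% ± 3.36 read-based). In the linker between domains III and IV, known as a splicing site in human CACNA1G, the 193-base version of an exon held 74.8% ± 1.80 and the version lengthened to 214 bases 25.2% ± 1.80 (61.7% and 38.3% read-based). The next exon, of 54 bases, was in 91.8% ± 1.59 (91.3% read-based; SD, n = 2). Exons of 144 and 135 bases in the tail, both from Cacna1g-207 alone, were in 11.8% ± 4.20 (16.6% read-based).

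Cacna1h showed how an annotation can divide 1 coding sequence. The alignment-based quantification gave Cacna1h-205 66.7% ± 0.791 of the gene TPM and Cacna1h-201 nothing, whereas the read-based one gave them 28.1% ± 6.04 and 27.2% ± 9.96 (SD, n = 2). The 2 models have the same 7077 coding bases with 0 differences, drawn with other exon ends, so both encode the same 2359 residues. Added together they held 67.3% and 66.2% in replicates 1 and 2, against 52.6% and 58.1% by the read-based values. Cacna1i has 1 complete model, Cacna1i-202, which held 82.6% ± 5.89 of the TPM and 99.2% and 99.6% of the counts. Its 2 versions of an exon, of 147 and 108 bases, stood at 83.0% ± 6.47 and 17.0% ± 6.47 (95.7% ± 6.10 and 4.32% ± 6.10 read-based; SD, n = 2). The share of the shorter one came entirely from Cacna1i-203, a fragment of 394 bases with 24.1 and 11.7 counts in replicates 1 and 2.

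**Figure D3:**
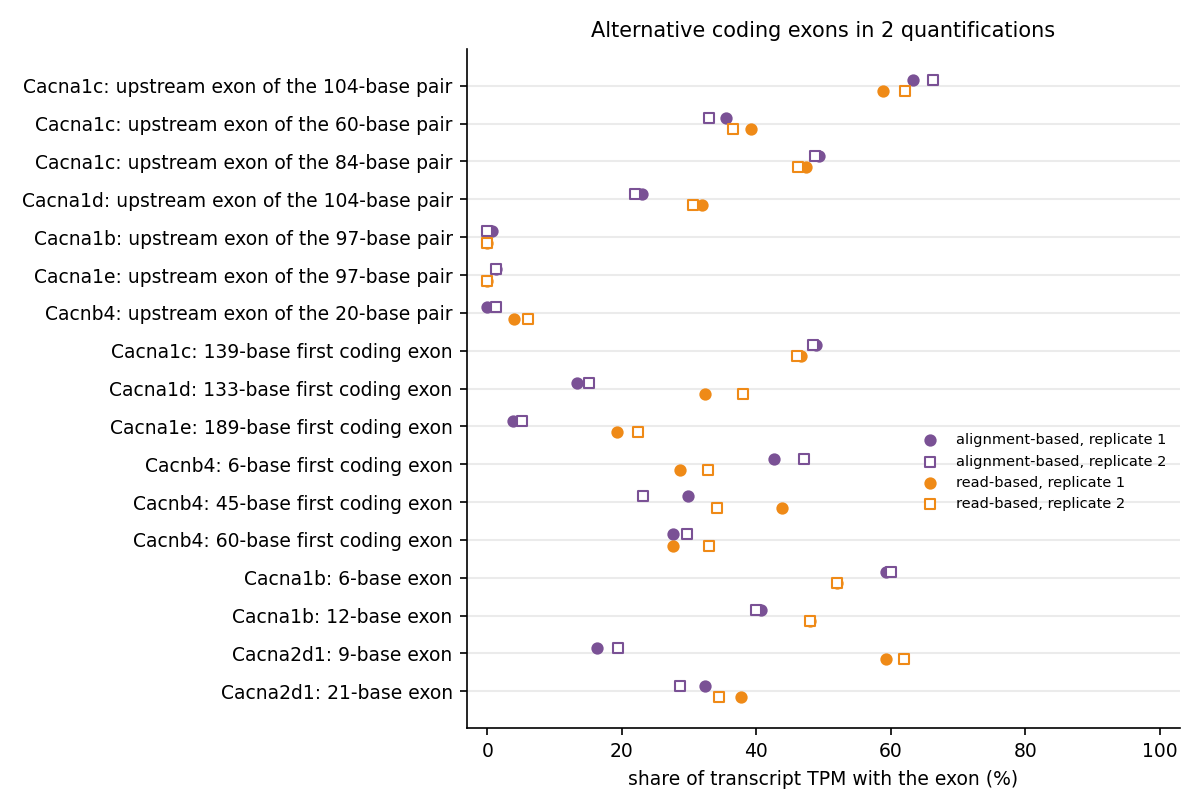
Share of transcript TPM (horizontal axis, %) in transcripts that hold each alternative exon, alignment-based (purple) and read-based (orange), in replicate 1 (filled circles) and replicate 2 (open squares). The Cacna1c and 97-base pairs lie close in both quantifications, whereas the 9-base exon of Cacna2d1 lies at 17.9% in one and 60.6% in the other.

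Cacna2d1 had the largest disagreement between the quantifications among the leading transcripts. Its 3 most abundant coding transcripts differ in what they hold between the shared ends of 2 coding exons (chr5:16340772-16342694): 21 bases in Cacna2d1-205, 21 other bases in Cacna2d1-203, and none in Cacna2d1-202. Capitals mark the inserted bases, with 12 bases on either side.
Cacna2d1-205: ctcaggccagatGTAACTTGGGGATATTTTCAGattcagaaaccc
Cacna2d1-203: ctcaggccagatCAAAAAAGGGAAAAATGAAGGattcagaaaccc
Cacna2d1-202: ctcaggccagatattcagaaaccc

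In the alignment-based quantification Cacna2d1-202 led with 46.3% ± 0.436 of the gene TPM, followed by Cacna2d1-203 with 27.1% ± 2.89 and Cacna2d1-205 with 16.1% ± 1.94 (SD, n = 2). In the read-based one Cacna2d1-205 led with 53.9% ± 1.43, followed by Cacna2d1-203 with 31.1% ± 2.88, and Cacna2d1-202 stood at 2.12% ± 0.494. The form without the insertion and the form with the Cacna2d1-205 insertion thus changed places, while the share of Cacna2d1-203 lay close in both. Cacna2d1-205 and Cacna2d1-203 have coding sequences of equal length, 3273 bases, that differ at 12 bases. The 57-base exon farther upstream held 0.0807% and 0.872% in the 2 quantifications, and the 72-base version of the exon after it 99.6% and 98.9%.

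Cacnb4 begins with 3 alternative coding exons, which give the beta subunit different amino ends. They are printed with the start codon in capitals.
Cacnb4-202, first coding exon: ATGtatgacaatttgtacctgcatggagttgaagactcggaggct
Cacnb4-201, first coding exon: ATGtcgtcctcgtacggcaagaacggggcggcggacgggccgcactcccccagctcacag
The remaining one, in Cacnb4-203, has 6 coding bases. The Cacnb4-203 start held 42.6% and 47.0% in replicates 1 and 2 (44.8% ± 3.15), that of Cacnb4-202 29.8% and 23.2% (26.5% ± 4.68), and that of Cacnb4-201 and Cacnb4-206 27.6% and 29.7% (28.7% ± 1.53; SD, n = 2 each). By the read-based values the Cacnb4-202 start was the highest on average, at 39.0% ± 6.76, against 30.7% ± 2.99 for Cacnb4-203 and 30.3% ± 3.78 for Cacnb4-201 and Cacnb4-206 (SD, n = 2 each). The leading start lay above the others in both libraries on either scale, but it was not the same start. The proteins encoded have 473, 486 and 519 residues in Cacnb4-203, Cacnb4-202 and Cacnb4-201. Cacnb4 also has a pair of alternative 20-base exons, of which the downstream one held 99.3% ± 0.941 (95.0% ± 1.48 read-based; SD, n = 2).

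The most abundant transcript was the same in both quantifications for 7 of 10 members, beside 75.5% of 11502 detected protein-coding genes with more than 1 transcript. The exceptions, by the mean of both libraries, were Cacna2d1, Cacnb4 and Cacna1g. For Cacna1g the read-based values put the 784-base processed transcript Cacna1g-212 at 22.7% ± 4.09 and Cacna1g-203 at 20.8% ± 1.72 (SD, n = 2). Cacna1g-212 led in replicate 1 only (25.6% against 19.6%), and Cacna1g-203 led in replicate 2 (22.0% against 19.8%). In replicate 2 alone the read-based values also put Cacna1h-201 (34.2%) above Cacna1h-205 (23.9%).

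Cacna2d1 and Cacnb4 held different places in their families. Cacna2d1 made up 58.0% and 56.3% of the alpha2delta TPM in replicates 1 and 2. Cacna2d3 followed with 35.6% ± 0.843, Cacna2d2 with 6.62% ± 0.304 and Cacna2d4 with 0.716% ± 0.0535 (SD, n = 2). Cacnb4 made up 15.5% and 15.7% of the beta TPM, behind Cacnb3 with 40.1% ± 0.294, Cacnb1 with 26.9% ± 0.279 and Cacnb2 with 17.4% ± 0.395 (SD, n = 2). Over protein-coding transcripts only, Cacnb4 held 14.2% ± 0.223 (SD, n = 2) and stood above Cacnb2.

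The 2 remaining pore genes, Cacna1f of the retina and Cacna1s of skeletal muscle, were not detected, with at most 0.07 and 0.20 TPM in either library. Of the gamma genes, several of which encode partners of AMPA receptors more than of calcium channels, 6 of 8 were detected, the highest being Cacng8 at 167 ± 0.120 TPM (SD, n = 2). All 3 other beta genes and 3 of 4 other alpha2delta genes, with the related Cachd1 among them, were detected. Of the regulators, 1 of 4 RGK GTPases (Rem2, 9.04 ± 0.976 TPM), which inhibit the channels, and 1 of 3 Stac genes (Stac2, 20.3 ± 0.608 TPM) were detected, as were the calmodulin-like Cabp1 at 52.5 ± 0.191 TPM and 4 of 4 genes that tether channels at release sites (Rims1 the highest at 110 ± 1.65 TPM; SD, n = 2).

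**Figure D4:**
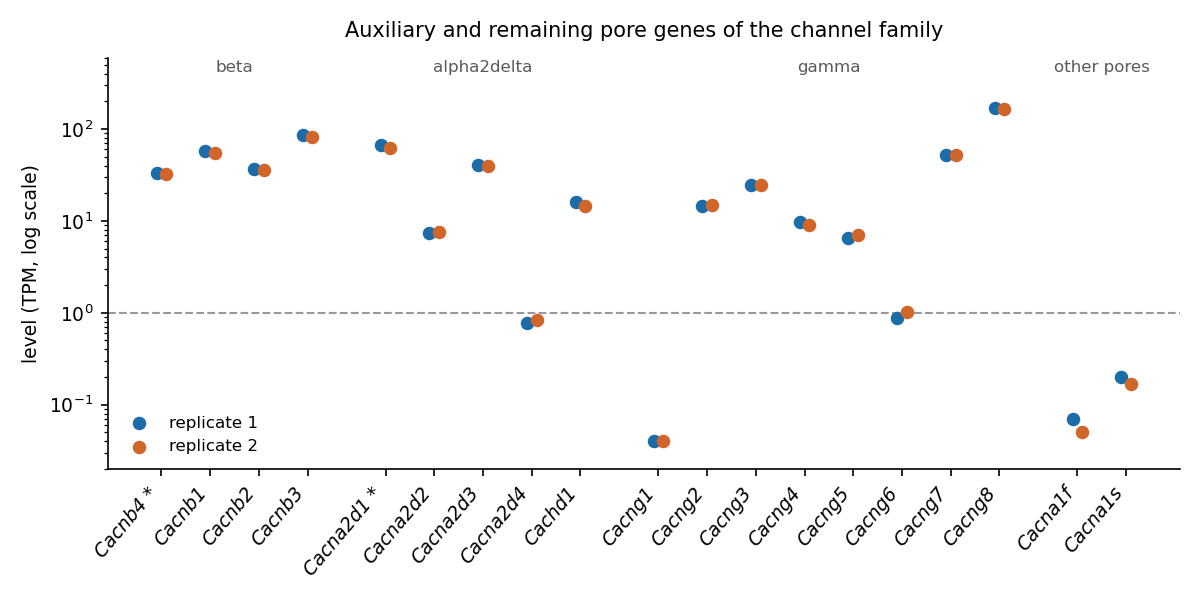
Level in TPM on a log axis (vertical) of the beta, alpha2delta, gamma and remaining pore genes in replicate 1 (blue) and replicate 2 (orange); asterisks mark Cacnb4 and Cacna2d1 and the dashed line is 1 TPM. Cacnb4 stands lowest of the beta genes and Cacna2d1 highest of the alpha2delta genes in both libraries.

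The 2 libraries differed little for these genes. None of the 10 was 2-fold apart, beside 0.273% of the 13916 genes whose expected count reached 50 in each library. The widest log2 ratio of TPM, replicate 2 over replicate 1, was -0.27 for Cacna1i, and the narrowest were -0.04 for Cacna1g and Cacnb4. This order depended on the scale: by TMM-scaled counts Cacna1g had the widest ratio, at -0.18, and Cacna1i stood at -0.08. By TPM all 10 were lower in replicate 2, beside 62.6% of the genes. The median log2 ratio of TPM was -0.14 over the members and -0.04 over all those genes (SD 0.20). After TMM scaling of the counts 9 of 10 were lower, beside 48.8%, with medians of -0.09 and 0.0029, and Cacnb4 was higher in replicate 2. With DESeq2 size factors it was again 9 of 10, beside 51.9%, and so it was by the read-based TPM, beside 55.4%. Rescaling TPM over nuclear protein-coding genes left 10 of 10 lower, beside 54.4%. With 1 library a side there is no test of these differences. Other marker levels differed too. The 4 neuron markers were all lower in replicate 2 and summed to 1910 and 1819 TPM in replicates 1 and 2. Lists of single neuron types went both ways. In the same order, dentate granule cell markers summed to 152 and 161 TPM and CA1 markers to 165 and 176. Interneuron markers summed to 395 and 407 TPM and CA3 markers to 60.7 and 58.9. Of the 4 oligodendrocyte markers 3 were lower in replicate 2, and they summed to 809 and 727 TPM. The 3 choroid plexus markers summed to 14.8 and 27.3 TPM, of which Ttr alone gave 10.6 and 23.1. The part of these cell types in the differences was not tested.

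**Figure D5:**
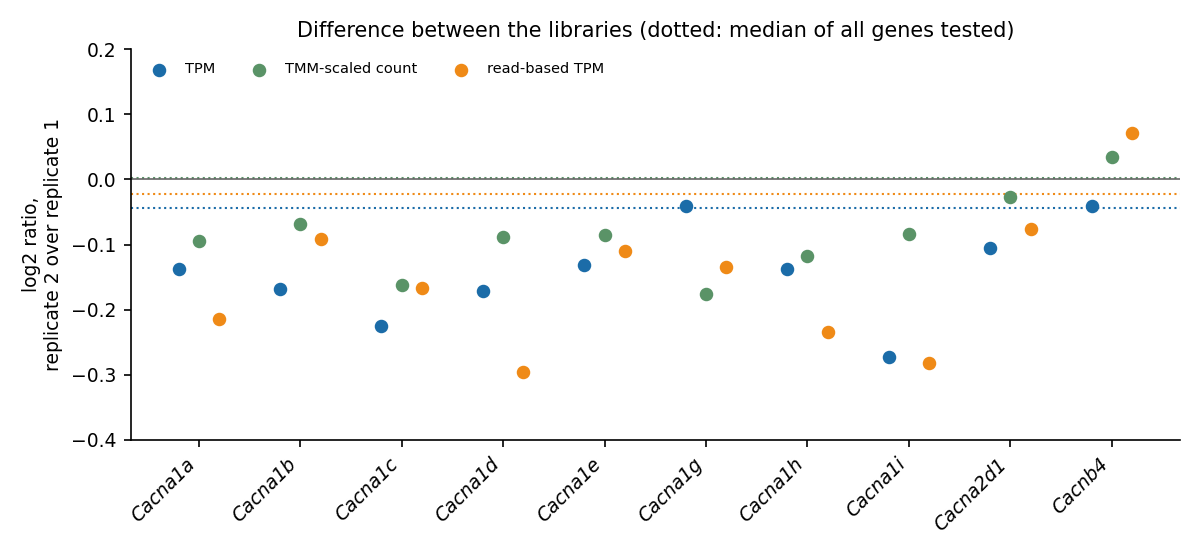
Log2 ratio, replicate 2 over replicate 1 (vertical axis), of each gene by TPM (blue), TMM-scaled count (green) and read-based TPM (orange); dotted lines are the medians over all genes tested. All points lie between -0.30 and 0.07, and those above 0 belong to Cacnb4.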

How the data were processed

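Total RNA libraries of 1 group were analysed from the files the authors deposited. Per the labels and deposited listing, expected counts and TPM per gene and transcript came from reads aligned to the mm10 transcriptome with GENCODE M21, and a second transcript table of estimated counts and TPM came directly from the reads. The alignment-based tables also hold lower and upper TPM bounds, used here as signal values as deposited. Neither the programs nor any use of strand in counting is given in the sources used here. Reads were referred to mm10, the genome of only 1 parent of the hybrid, and alleles were not separated. Genes on the opposite strand of a member, such as Dcp1b (7.58 and 6.63 TPM) within Cacna1c and Dcp1a (9.35 and 6.94 TPM) within Cacna1d, may therefore share reads with it.

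Transcript TPM was summed by class and by coding exon with Python 3.11.15 and pandas 2.3.3, using exon and coding coordinates of GENCODE M21 and exon bases from its transcript sequences. A transcript counted as complete where neither end of its coding sequence was tagged as not found. An exon share has as denominator the TPM of transcripts spanning the exon, a choice made after the data were seen, in place of the gene TPM. For first coding exons the denominator is the TPM of complete protein-coding transcripts. Counts were scaled with TMM (edgeR 4.0.16) and DESeq2 1.42.0 size factors for the ratios, with the TPM ratio as the main value. Exons named are mainly those with shares between 10% and 90%, pairs of equal length and first coding exons. Of these, a few are left out, among them a pair of 12-base exons in Cacna1e. Exons of Cacna1a, Cacna1g and Cacna2d1 with shares above 90% were named after their values were seen. The members and lists were chosen with earlier results of these data known. Nothing in the labels says that the libraries came from separate animals beyond the replicate numbers, and SDs describe the spread between these 2 libraries. The ratio calculation was tested on simulated data.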

Additional observations from a re-analysis of the deposited data

How the results depend on the processing

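The number of members detected (10), of those 2-fold apart (0) and of those with the same leading transcript (7, or 8 among protein-coding transcripts only) kept its value or nearly so under every alternative run on it, and 9 or 10 members were lower in replicate 2. Leaving out either library was run for the numbers detected and with the same leading transcript, since a ratio needs both libraries. The 7 with the same leading transcript were not the same members each time: in replicate 2 alone Cacna1g joined them and Cacna1h left. The median member level was 33.3 TPM, between 31.8 and 34.9 with 1 library left out. It was 80.0 TPM rescaled over nuclear protein-coding genes, 53.9 TPM by the read-based values and 28.2 TPM over complete coding transcripts, a setting chosen after seeing the data; each of these changes the sum or the transcripts behind the TPM. All 40 exon shares and all 10 leading transcript shares moved by more than the SD of the 2 libraries under the read-based quantification, so that SD understates the error of a share. With the gene TPM as denominator, 32 of the 40 exon shares moved by more than that SD and 8 did not. The 45-base exon of Cacna1d, for example, went from 84.2% to 35.2%. The TPM of 9 of 10 members lay inside the deposited bounds in both libraries, Cacna1e being the exception. No paired analysis was possible because there is 1 group.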
